A study of Mus musculus with 12 samples.

Results

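Gadd45a, Gadd45b, Tdg, Mbd4, Ung, Apobec1 and Parp1 encode proteins that act around the removal of methylated or deaminated cytosine by base excision repair. They were followed by gene name through every array of a study of mouse embryonic stem (ES) cells. The 7 genes are carried by 11 probes, out of 28786 genes on the array, of which 21992 gave a signal well above background on at least 2 arrays and were tested. All 11 probes lay well above background on all 12 arrays, none was saturated, and all 7 genes passed the filter on dim genes.

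RNA was measured on 12 one-colour arrays from 2 independent ES cell reporter lines, Dazl-GFP and Stella-GFP, with 1 array for each line, medium and day. The serum-free arm, which the sample labels also call the 2i condition, grew in B27N2 medium, and the FBS arm in medium with 15% fetal bovine serum. The groups are serum-free cells at days 0, 3 and 10 and FBS cells at days 0, 3 and 10, with 2 arrays (1 of each line) in each. All cultures received leukemia inhibitory factor and grew on irradiated feeder fibroblasts. For the 2i experiments the labels give a MEK inhibitor, PD0325901, at 1 µM and a GSK3β inhibitor, Kenpaullone, at 5 µM. They do not state whether FBS cells had the inhibitors at days 3 and 10, or what serum-free cells had received by day 0, so an arm difference here is a difference between these labelled groups. The series title asks about Dazl and TET enzymes in the passage to naive pluripotency, and the genes described here act downstream of TET oxidation or beside it.

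TET enzymes oxidise 5-methylcytosine stepwise, and the thymine DNA glycosylase Tdg cuts out the most oxidised bases, after which base excision repair puts back an unmethylated cytosine. In another proposed route a deaminase turns the base into thymine or uracil, which Tdg, Mbd4 or Ung can remove. Gadd45 proteins are small stress-induced adaptors that have been linked to both routes and also act in cell cycle arrest and MAP kinase signalling. Parp1 senses the strand breaks that excision leaves, and base excision repair genes have been studied in ES cells and in the germ line, where methylation is erased over a large part of the genome.

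Across these arrays the Gadd45 pair carried the largest changes of the 7 genes. Gadd45b rose at day 3 in both arms and at day 10 in FBS cells, and it was lower in serum-free than in FBS cells at days 3 and 10. Gadd45a fell in both arms at days 3 and 10. Ung was 2.01-fold lower in serum-free than in FBS cells at day 3. Tdg, Mbd4, Apobec1 and Parp1 passed in no comparison. Levels are given as relative signal, the probe's processed signal divided by the 75th percentile of its array. Changes are log2 differences from a linear model (limma) fitted to all genes and all 12 arrays, with the adjusted p-value taken over all genes tested and a threshold of 0.05.

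**Figure D1:**
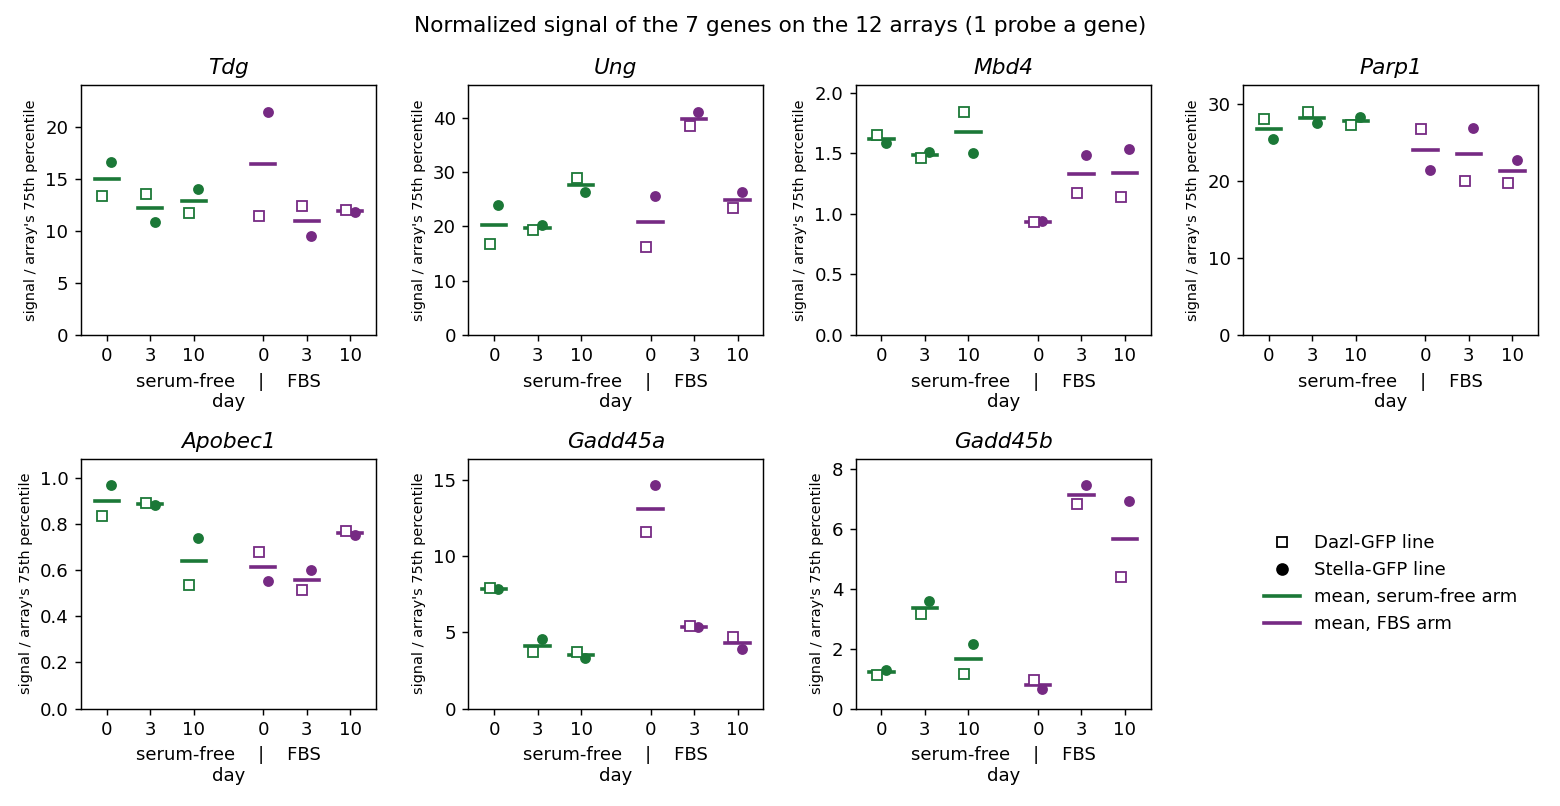
Relative signal (processed signal over the array's 75th percentile, linear axis from 0) of the probe that stands for each gene, against day in the serum-free arm (left, green) and the FBS arm (right, purple). Open squares are the Dazl-GFP line, filled circles the Stella-GFP line and bars the mean of both. Gadd45b lies between 4.37 and 7.44 in FBS cells at days 3 and 10, above every other array, where the highest value is 3.58.

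The 12 arrays had a 75th percentile of 454 to 947 intensity units and 64.0% to 74.4% of their spots well above background. The FBS arrays of day 3 had the lowest 75th percentiles, 562 (Dazl-GFP) and 454 (Stella-GFP), so division by this value raised their relative signals most. All 8 ES cell markers were well above background on every array, with a mean log2 relative signal of 4.29 to 4.64. Fibroblast markers, which feeder cells would carry, were also above background on every array (13 of 13). Their mean log2 level was -1.23 to -0.65 in serum-free cells at day 3 against 1.20 to 2.05 in FBS cells at day 3, and 11 of the 13 were lower in serum-free cells there. At day 10 the range was -0.35 to 0.55 in serum-free cells against 0.22 to 0.84 in FBS cells, with 3 of 13 lower, and at day 0 it was 0.22 to 0.53 against 0.52 to 1.10, with 1 of 13 lower. Primitive endoderm markers were at -1.45 to -0.31 in serum-free cells at day 3 against -3.25 to -3.08 in FBS cells at day 3 (6 of 8 higher), and macrophage markers at -4.16 to -3.87 against -2.13 to -1.76 (5 of 9 lower and 1 higher). Neural markers were at -2.26 to -1.57 in serum-free cells at day 3 against -0.62 to -0.35 in FBS cells at day 3 (4 of 6 lower), and at day 10 at -1.02 to -0.98 against -0.86 to -0.51 (3 of 6 lower). Between the arms at day 3, 22.7% of all genes were called, 9.26% higher and 13.4% lower. Markers also changed within the serum-free arm. At day 3 over day 0, 6 of 13 fibroblast markers fell and 0 rose, where 7.76% of all genes fell. Primitive endoderm markers were at -1.27 to -0.34 at day 0 and -3.32 to -3.29 at day 10. Of these, 5 of 8 fell at day 10 over day 0 and 0 rose, where 2.93% of all genes fell. The RNA came from whole cultures, in which fewer cells of a type and less RNA per cell cannot be told apart.

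Each of 3 slides carried 4 arrays. Serum-free Dazl-GFP of day 10 and every serum-free Stella-GFP array were together on slide 3. On slide 2, serum-free Dazl-GFP of days 0 and 3 sat beside FBS Stella-GFP of days 3 and 10, and slide 1 had the remaining FBS arrays. Arm and slide were therefore partly joined. Day and slide were joined in FBS Stella-GFP, with day 0 on slide 1, and in serum-free Dazl-GFP, with day 10 on slide 3. Changes in these lines to or from those arrays cross slides. For the genes with a change that passed, some values within a slide are given. Every group holds 1 array of each line, so p-values measure the spread between these cultures of the lines.

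Gadd45b (chromosome 10, 80930091 to 80932204, GRCm38.p6) encodes an adaptor that binds the MAP kinase kinase kinase MTK1 and rises after many kinds of stress. In serum-free cells its relative signal was 1.13 (Dazl-GFP) and 1.27 (Stella-GFP) at day 0, 3.16 and 3.58 at day 3, and 1.15 and 2.15 at day 10. In FBS cells it was 0.946 (Dazl-GFP) and 0.656 (Stella-GFP) at day 0, 6.815 and 7.44 at day 3, and 4.37 and 6.92 at day 10. Both lines were high at day 3 in both arms, both stayed high at day 10 in FBS cells, and at day 10 the serum-free Dazl-GFP array was back near its day 0 value.

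In serum-free cells Gadd45b rose at day 3 by a log2 change of 1.48 over day 0 (SE 0.32, limma adjusted p = 0.0251), with 1.48 in Dazl-GFP and 1.49 in Stella-GFP. At day 10 the change from day 0 was 0.39 (SE 0.32, adjusted p = 0.459) and did not pass. In FBS cells it rose by 3.18 at day 3 (SE 0.32, adjusted p = 0.00504) and by 2.80 at day 10 (SE 0.32, adjusted p = 0.00313). The rise at day 3 was 2.85 in the Dazl-GFP line and 3.51 in the Stella-GFP line.

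Between the arms Gadd45b was 2.12-fold lower in serum-free than in FBS cells at day 3 (log2 -1.08, SE 0.32, adjusted p = 0.0456) and 3.50-fold lower at day 10 (log2 -1.81, SE 0.32, adjusted p = 0.0250). The arms did not overlap at either day, and at day 0 the serum-free values were the higher ones (log2 0.61, SE 0.32, adjusted p = 0.292). The difference between the arms' changes was -1.69 at day 3 (SE 0.45, adjusted p = 0.0878) and -2.41 at day 10 (SE 0.45, adjusted p = 0.0766), in the same direction in both lines. Neither passed, although each was below 0.05 before adjustment. Fibroblast, neural and immediate early genes were lower in the same serum-free arrays at day 3, and some fibroblast, neural and stress genes were lower at day 10. Their part in the Gadd45b difference was not tested.

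A second probe in Gadd45b followed the first across the arrays (Pearson r = 0.975 over 12 arrays, a description of 2 probes that share each array). It gave a rise of 1.64 at day 3 in serum-free cells (adjusted p = 0.0265) and of 2.29 at day 3 (adjusted p = 0.0119) and 2.30 at day 10 (adjusted p = 0.00883) in FBS cells. It also passed for the arms at day 10 (-1.89, adjusted p = 0.0316). At day 3 it gave -0.73 for serum-free minus FBS cells (adjusted p = 0.167), so the difference of the arms at day 3 rests on 1 of the 2 probes.

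The FBS changes of Gadd45b passed in all 12 fits that leave out 1 array, over a range of 2.71 to 3.64 at day 3 and 2.34 to 3.27 at day 10. The serum-free change at day 3 lost its call when any 1 of the 4 serum-free arrays of days 0 and 3 was left out (1.43 to 1.54, adjusted p 0.119 to 0.136). The arm difference at day 10 lost it without either FBS array of day 10 (-2.05 without Dazl-GFP, -1.56 without Stella-GFP) or without the serum-free Dazl-GFP array of day 10 (-1.42). The arm difference at day 3 was lost in 8 of the 12, namely without any array of serum-free days 0 and 3 or FBS days 3 and 10 (-1.16 to -1.01, adjusted p 0.0566 to 0.194). With the slide as a block the value was -1.18 at day 3 (adjusted p = 0.204), -1.90 at day 10 (adjusted p = 0.419) and 1.48 for the serum-free rise (adjusted p = 0.0506), none of which passed. Within slide 2 at day 3, the serum-free Dazl-GFP array lay -1.24 from the FBS Stella-GFP array, and within slide 1 the FBS Dazl-GFP line rose by 2.85 at day 3. The serum-free rises at day 3 also lay within a slide, 1.48 for Dazl-GFP on slide 2 and 1.49 for Stella-GFP on slide 3.

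Gadd45a (chromosome 6, 67035096 to 67037407, GRCm38.p6), the p53-inducible founding member of the family, moved the other way. Its relative signal in serum-free cells was 7.90 (Dazl-GFP) and 7.86 (Stella-GFP) at day 0, 3.72 and 4.54 at day 3, and 3.74 and 3.31 at day 10. FBS cells had 11.6 (Dazl-GFP) and 14.7 (Stella-GFP) at day 0, 5.41 and 5.37 at day 3, and 4.68 and 3.91 at day 10. Day 0 was the highest day in each line of each arm, and at every day both serum-free values lay below both FBS values.

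The fall in serum-free cells was -0.94 at day 3 (SE 0.19, limma adjusted p = 0.0234) and -1.16 at day 10 (SE 0.19, adjusted p = 0.0206). In FBS cells it was -1.28 at day 3 (SE 0.19, adjusted p = 0.0102) and -1.61 at day 10 (SE 0.19, adjusted p = 0.00387). The arms differed by -0.73 at day 0 (SE 0.19, adjusted p = 0.0963), -0.39 at day 3 (SE 0.19, adjusted p = 0.173) and -0.28 at day 10 (SE 0.19, adjusted p = 0.402), and none of these passed. The changes from day 0 differed between the arms by 0.34 at day 3 (SE 0.27, adjusted p = 0.486) and 0.44 at day 10 (SE 0.27, adjusted p = 0.416). Some fibroblast markers fell in serum-free cells at days 3 and 10, and some primitive endoderm markers at day 10. Their part in the serum-free changes of Gadd45a and Gadd45b was not tested.

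The FBS fall at day 10 passed in all 12 fits without 1 array (-1.79 to -1.42). The FBS fall at day 3 was lost without either FBS array of day 3 (-1.30 without Dazl-GFP and -1.25 without Stella-GFP). The serum-free falls were lost without any 1 of the 4 arrays compared, at day 3 (-1.09 to -0.78) and at day 10 (-1.29 to -1.04). With the slide as a block the serum-free fall at day 3 (-0.94, adjusted p = 0.0394) and the FBS fall at day 10 (-1.50, adjusted p = 0.0325) passed, while the FBS fall at day 3 (-1.17, adjusted p = 0.0612) and the serum-free fall at day 10 (-1.19, adjusted p = 0.105) did not. Within slide 1 the Gadd45a change of the FBS Dazl-GFP line was -1.10 at day 3 and -1.31 at day 10. Within slide 3 that of the serum-free Stella-GFP line was -0.79 and -1.25. Within slide 2 the serum-free Dazl-GFP change at day 3 was -1.09. On that slide at day 3 the serum-free Dazl-GFP array lay -0.53 from the FBS Stella-GFP array. Gadd45a has 1 probe on the array, so its values have no check by another probe.

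**Figure D2:**
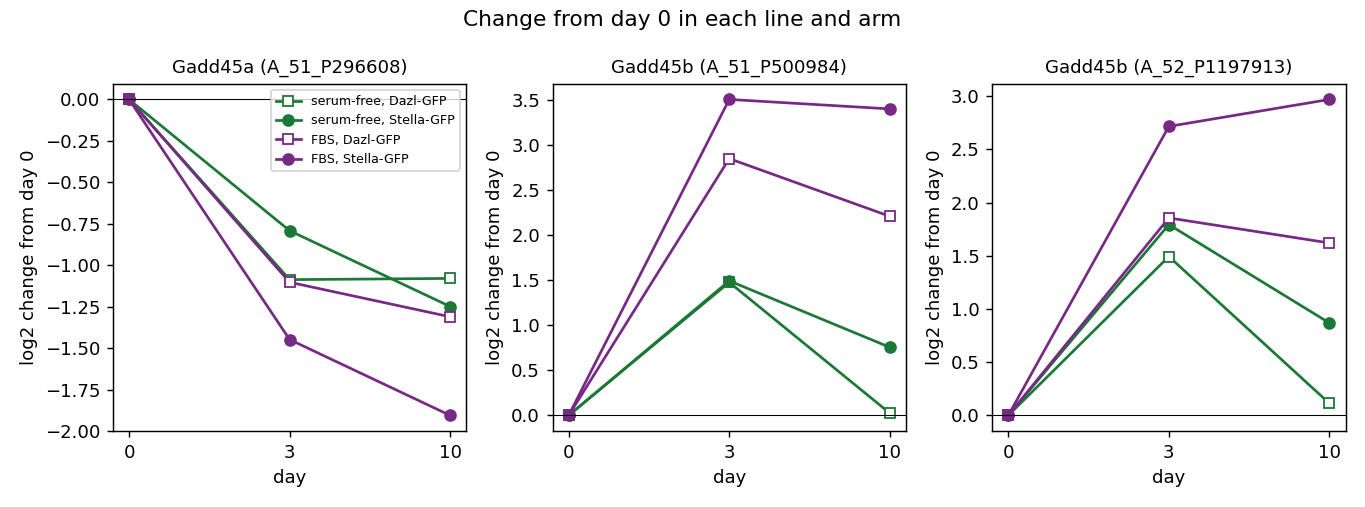
Log2 change from day 0 (vertical axis) against day (horizontal axis, evenly spaced) in each line and arm, for the Gadd45a probe and both Gadd45b probes. Gadd45a ends below 0 in all 4 courses, and Gadd45b is highest in FBS cells of the Stella-GFP line, at 3.51 on day 3 for the first probe.

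The start regions of the Gadd45 pair are shown because these relatives changed in opposite directions in the same cultures. Each window runs from 250 bases before to 50 bases after a transcript start that RefSeq gives on GRCm38.p6, read along the gene, and for this pair that start is where the annotated gene begins. Gadd45a lies on the minus strand at chr6:67037358-67037657 and Gadd45b on the plus strand at chr10:80929841-80930140. Capitals mark the motifs found. They are the GC box, with letters GGGCGG and read here from the other strand, the CCAAT box, spelled as its name, and the TATA box, with letters TATAAA.
Gadd45a: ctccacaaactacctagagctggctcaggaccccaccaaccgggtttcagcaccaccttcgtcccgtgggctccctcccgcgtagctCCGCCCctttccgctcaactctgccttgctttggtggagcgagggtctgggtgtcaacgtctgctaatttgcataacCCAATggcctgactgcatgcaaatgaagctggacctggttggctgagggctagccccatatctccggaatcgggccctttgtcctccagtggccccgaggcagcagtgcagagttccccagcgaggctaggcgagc
Gadd45b: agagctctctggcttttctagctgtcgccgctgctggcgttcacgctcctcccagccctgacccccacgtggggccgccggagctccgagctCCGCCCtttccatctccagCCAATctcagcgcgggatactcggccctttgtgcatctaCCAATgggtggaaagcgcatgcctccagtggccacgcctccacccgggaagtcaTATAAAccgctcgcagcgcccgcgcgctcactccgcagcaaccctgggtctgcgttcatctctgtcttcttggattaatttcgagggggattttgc
Both windows hold 1 GC box, at -163 in Gadd45a and -158 in Gadd45b counted from the start. Gadd45a has 1 CCAAT box at -86, and Gadd45b has CCAAT boxes at -139 and -100 and a TATA box at -46. Gadd45a has 14 CpG sites in its 300 bases and Gadd45b 24, and the median over 32851 RefSeq windows of this length is 7 (quartiles 3 and 20). Searched on both strands, GGGCGG is in 35.7% of all windows, CCAAT in 37.4% and TATAAA in 13.6%, with no overlap among the matches here. The letters of an AP-1 site (TGANTCA, in 7.81% of all windows), a CRE (TGACGTCA, in 1.79%) and an E2F site (TTTNGCGC, in 1.38%) were in neither window.

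The third member of the family, Gadd45g, was followed with the partners of Gadd45 proteins. Gadd45g was lower in serum-free than in FBS cells at day 3 (log2 -3.15, SE 0.43, limma adjusted p = 0.00474) and rose at day 10 in serum-free cells (2.23 over day 0, adjusted p = 0.0311, and 2.70 over day 3, adjusted p = 0.0327). The day 3 difference passed in all 12 fits without 1 array, and the rise over day 0 in 8 of 12. All 11 genes of the list of family and partners were tested. At day 3, 1 was higher and 4 lower in serum-free than in FBS cells, where 9.26% of all genes were higher and 13.4% lower, with a list median of -0.17 beside -0.20 over all genes. The higher one was the nucleotide excision endonuclease Ercc5 (1.34, adjusted p = 0.00486). The other lower ones were its counterpart Ercc1 (-1.47, adjusted p = 0.00286), Gadd45gip1 (-1.51, adjusted p = 0.00504) and cyclin B1, Ccnb1 (-0.72, adjusted p = 0.0162), whose kinase complex Gadd45 proteins can inhibit. Cdkn1a, the p21 cell cycle inhibitor, rose in FBS cells at day 3 (1.32, adjusted p = 0.0226) and at day 10 (1.57, adjusted p = 0.0111), and in serum-free cells at day 10 (1.24, adjusted p = 0.0443).

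Gadd45 genes belong to the stress-induced genes, so 12 immediate early and stress genes were set beside them. Of these, 8 were lower in serum-free than in FBS cells at day 3, where 13.4% of all genes were lower, with a list median of -1.90 beside -0.20 over all genes. The growth factor induced transcription factor genes Fos (-4.20, limma adjusted p = 0.00280) and Egr1 (-3.10, adjusted p = 0.00555) were among them, with Junb (-1.66, adjusted p = 0.00299) and Atf3 (-2.94, adjusted p = 0.00267). At day 10, 4 of the 12 were lower in serum-free than in FBS cells (Atf3, Chac1, Nupr1 and Trib3), where 3.48% of all genes were lower. The list median there was -1.14 beside 0.11 over all genes. Atf3 ran from -5.03 to -4.70 there in the fits without 1 array. At day 0, 2 of the 12 (Atf3 and Chac1) were already lower in serum-free cells and 0 higher, where 1.84% of all genes were called. The list median at day 0 was -0.40 beside -0.01 over all genes. Each of these 2 calls passed in 0 of 12 fits without 1 array. In FBS cells 6 of the 12 rose at day 3 over day 0, where 6.59% of all genes rose, Fos by 3.45 (adjusted p = 0.00797) and Junb by 1.19 (adjusted p = 0.0117). At day 10 over day 0 in FBS cells, 3 rose (Atf3, Fos and Nupr1) and 1 fell (Myc), where 7.68% of all genes rose and 5.24% fell. In serum-free cells, at the day 3 of the Gadd45b rise, 2 of the 12 passed and both fell, where 13.8% of all genes were called and 7.76% fell. They were the growth regulator Myc (-4.14, adjusted p = 0.0116) and Trib3 (-1.04, adjusted p = 0.0332). Among 16 p53 targets, 1 passed between the arms at day 3, where 22.7% of all genes were called and 9.26% were higher. It was Trp53inp1, which was higher in serum-free than in FBS cells (1.17, adjusted p = 0.0121). In serum-free cells 2 of the 16 fell at day 3, where 7.76% of all genes fell, the death receptor Fas (-1.18, adjusted p = 0.0230) and Pmaip1, which encodes the death protein Noxa (-1.16, adjusted p = 0.0256). In FBS cells 3 rose at day 3, Cdkn1a as above, the death effector Bax (0.80, adjusted p = 0.0404) and Perp (0.99, adjusted p = 0.0444), and 1 fell, Pmaip1 (-0.97, adjusted p = 0.0458), where 6.59% of all genes rose and 5.14% fell.

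Ung (chromosome 5, 114130366 to 114139321, GRCm38.p6) encodes the main uracil DNA glycosylase, which follows a deaminase. Serum-free cells had a relative signal of 16.7 (Dazl-GFP) and 23.9 (Stella-GFP) at day 0, 19.3 and 20.3 at day 3, and 28.9 and 26.4 at day 10. Values in FBS cells were 16.2 (Dazl-GFP) and 25.6 (Stella-GFP) at day 0, 38.6 and 41.2 at day 3, and 23.5 and 26.3 at day 10. In relative signal both FBS arrays of day 3 were higher than the other 10 arrays, and the arms overlapped at day 0. Before division by the 75th percentile, FBS signals were 15300 (Dazl-GFP) and 21100 (Stella-GFP) at day 0 and 21700 and 18700 at day 3. In Stella-GFP the undivided signal was thus lower at day 3, so the size of the FBS rise depends on this scaling.

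At day 3 Ung was lower in serum-free than in FBS cells by -1.01 (SE 0.22, limma adjusted p = 0.0190), with -0.998 in Dazl-GFP and -1.02 in Stella-GFP. In FBS cells Ung rose by 0.97 at day 3 over day 0 (SE 0.22, adjusted p = 0.0318), and in serum-free cells the change was -0.02 (SE 0.22, adjusted p = 0.975). The difference of these changes was -0.99 (SE 0.31, adjusted p = 0.117) and did not pass. At day 10 the arms differed by 0.15 (SE 0.22, adjusted p = 0.698), with a 95% interval of -0.36 to 0.66. From day 3 to day 10 the FBS change was -0.68 (SE 0.22, adjusted p = 0.123), down in both lines, and did not pass.

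The Ung difference at day 3 was lost without any 1 of the 4 arrays compared (-1.11 to -0.91, adjusted p 0.0691 to 0.114). The FBS rise was lost without either array of FBS days 3 and 10, serum-free day 3, or the FBS Dazl-GFP array of day 0 (0.71 to 1.05, adjusted p 0.0535 to 0.145). With the slide as a block they were -0.96 (adjusted p = 0.152) and 1.04 (adjusted p = 0.109). Within slide 2 at day 3 the serum-free Dazl-GFP array lay -1.09 from the FBS Stella-GFP array, and within slide 1 the FBS Dazl-GFP line rose by 1.26. Ung has 1 probe on the array. The fibroblast and neural marker differences of the same day 3 arrays stand beside this result too, and their part was not tested.

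The start region of Ung is shown as that of the remaining gene with a change that passed. It lies on the plus strand at chr5:114130185-114130484 (RefSeq, GRCm38.p6), and the capitals mark GC boxes, as GGGCGG or on the other strand as CCGCCC.
Ung: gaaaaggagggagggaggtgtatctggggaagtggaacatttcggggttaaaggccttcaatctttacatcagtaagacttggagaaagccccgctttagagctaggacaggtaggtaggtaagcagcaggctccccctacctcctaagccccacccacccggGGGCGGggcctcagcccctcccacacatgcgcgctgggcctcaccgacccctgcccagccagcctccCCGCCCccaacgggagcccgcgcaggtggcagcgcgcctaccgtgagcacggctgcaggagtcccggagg
The start used is base 114130435, which lies 69 bases inside the span of Ung given above, and positions are counted from it. The GC boxes lie at -87 and -20, and the window holds 16 CpG sites but none of the other motifs searched.

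Tdg (chromosome 10, 82629814 to 82650799, GRCm38.p6) encodes the glycosylase that completes TET-driven demethylation. Its serum-free relative signal was 13.4 (Dazl-GFP) and 16.6 (Stella-GFP) at day 0, 13.5 and 10.8 at day 3, and 11.7 and 14.1 at day 10. The FBS values were 11.4 (Dazl-GFP) and 21.5 (Stella-GFP) at day 0, 12.4 and 9.47 at day 3, and 11.96 and 11.9 at day 10. By this probe Stella-GFP was the higher line at day 0 and the lower one at day 3 in both arms. The highest array was FBS Stella-GFP at day 0.

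No change of Tdg passed. The largest was the FBS change at day 3 (-0.53, SE 0.31, limma adjusted p = 0.292), which was 0.12 in Dazl-GFP and -1.18 in Stella-GFP. The arms differed by -0.07 at day 0, 0.16 at day 3 and 0.11 at day 10 (SE 0.31 each), with a 95% interval at day 10 of -0.61 to 0.83. A second, dimmer Tdg probe, on another transcript record, ranged from 1.56 to 2.57 and followed the first only in part (r = 0.456 over 12 arrays). It passed in no comparison either, with its lowest adjusted p (0.0757) at day 3 over day 0 in FBS cells, where its change was -0.54. By this second probe both FBS lines fell, Dazl-GFP from 2.41 to 1.56 and Stella-GFP from 2.57 to 1.86. Stella-GFP was thus the higher line at day 3 in FBS cells, and also in serum-free cells (2.00 against 1.72). The line order of the first probe at day 3 was therefore not seen in the second.

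Mbd4 (chromosome 6, 115840697 to 115853400, GRCm38.p6) joins a methyl-CpG binding domain to a glycosylase for thymine and uracil opposite guanine. Serum-free relative signals were 1.65 (Dazl-GFP) and 1.585 (Stella-GFP) at day 0, 1.46 and 1.51 at day 3, and 1.84 and 1.51 at day 10. FBS cells showed 0.928 (Dazl-GFP) and 0.943 (Stella-GFP) at day 0, 1.17 and 1.49 at day 3, and 1.14 and 1.53 at day 10. In relative signal both FBS arrays of day 0 were lower than the other 10 arrays, and the groups of that day did not overlap. Before division by the 75th percentile, FBS signals were 879 (Dazl-GFP) and 778 (Stella-GFP) at day 0 and lower, 657 and 676, at day 3.

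The arms differed at day 0 by 0.79 (SE 0.21, limma adjusted p = 0.0918), 1.73-fold higher in serum-free cells, which did not pass, although both lines agreed in sign (0.83 in Dazl-GFP and 0.75 in Stella-GFP). At day 3 the difference was 0.17 (SE 0.21, adjusted p = 0.554) and at day 10 it was 0.33 (SE 0.21, adjusted p = 0.351). In FBS cells the change from day 0 was 0.50 at day 3 (adjusted p = 0.156) and at day 10 (adjusted p = 0.161), and in serum-free cells it was -0.12 and 0.04 (SE 0.21 each).

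Of 8 other base excision glycosylases, 2 were higher and 1 lower in serum-free than in FBS cells at day 3, where 22.7% of all genes were called. Neil3, which acts on oxidised bases, was higher in serum-free cells (1.41, SE 0.16, limma adjusted p = 0.00299) and fell at day 3 in FBS cells (-1.04, adjusted p = 0.0109), and these changes of the arms differed (1.43, SE 0.23, adjusted p = 0.0408). The test of that difference passed in 1 of the 12 fits without 1 array, the range being 1.29 to 1.56. Neil2, which acts on oxidised bases as well, was higher in serum-free cells (2.16, adjusted p = 0.0308) but well above background on only 1 of 2 FBS arrays at day 3. Nthl1, a glycosylase for oxidised pyrimidines, was lower (-0.57, adjusted p = 0.0298). The other 5, among them the uracil glycosylase Smug1, did not pass, and the list median was -0.21 beside -0.20 over all genes.

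The later steps of base excision, from the nicked strand to the sealed one, had few changes that passed. Of their 16 genes, 1 was lower in serum-free than in FBS cells at day 3, where 13.4% of all genes were lower, the DNA ligase Lig1 (-0.62, limma adjusted p = 0.0472), and Parp3 rose at day 3 in FBS cells (1.30, adjusted p = 0.0166). The Lig1 difference passed in 2 of 12 fits without 1 array and the Parp3 rise in 11 of 12. The 6 mismatch repair genes passed in 0 of 72 tests by limma over the 12 comparisons (lowest adjusted p = 0.0820, 7 tests with an unadjusted p under 0.05). Over all genes, 0.0591% to 22.7% were called in a comparison. Of the 21992 genes, 3719 to 8705 had an unadjusted p under 0.05 in a comparison.

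Parp1 (chromosome 1, 180568891 to 180600999, GRCm38.p6), which binds strand breaks and builds poly(ADP-ribose) chains that recruit repair factors, varied least of the 7 genes, by a factor of 1.47 from the lowest to the highest array. For serum-free cells the relative signal was 27.98 (Dazl-GFP) and 25.4 (Stella-GFP) at day 0, 28.9 and 27.4 at day 3, and 27.2 and 28.3 at day 10. Those of FBS cells were 26.7 (Dazl-GFP) and 21.3 (Stella-GFP) at day 0, 19.9 and 26.9 at day 3, and 19.7 and 22.7 at day 10. The groups did not overlap at days 3 and 10, where serum-free cells had the higher values.

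The largest Parp1 difference was that of the arms at day 10 (0.39, SE 0.21, limma adjusted p = 0.281, with a 95% interval of -0.09 to 0.87). A second probe, on another sequence record of the gene, followed the first (r = 0.971 over 12 arrays) and gave 0.46 there (adjusted p = 0.236). Neither probe passed in any comparison.

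Apobec1 (chromosome 6, 122577792 to 122603024, GRCm38.p6) encodes the cytidine deaminase known for editing apolipoprotein B messenger RNA, which can also act on DNA. In serum-free cells its relative signal was 0.835 (Dazl-GFP) and 0.968 (Stella-GFP) at day 0, 0.891 and 0.884 at day 3, and 0.538 and 0.741 at day 10. In FBS cells it was 0.680 (Dazl-GFP) and 0.553 (Stella-GFP) at day 0, 0.514 and 0.601 at day 3, and 0.772 and 0.755 at day 10. Serum-free values lay above the FBS values at days 0 and 3 and below them at day 10, with no overlap at any day.

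At day 3 the arms differed by 0.67 (SE 0.20, limma adjusted p = 0.0511), 1.60-fold higher in serum-free cells, which did not pass. At day 0 the difference was 0.55 (SE 0.20, adjusted p = 0.173) and at day 10 it was -0.27 (SE 0.20, adjusted p = 0.440). From day 0 to day 10 Apobec1 changed by -0.51 in serum-free cells (SE 0.20, adjusted p = 0.171) and by 0.32 in FBS cells (SE 0.20, adjusted p = 0.358), and each line followed its arm. The difference of these changes was -0.83 (SE 0.29, adjusted p = 0.205) and did not pass. A second, much dimmer Apobec1 probe, at 0.0428 to 0.0791, did not follow the first (r = -0.06 over 12 arrays), and its arm differences were 0.08 at day 0 and -0.16 at day 3 (adjusted p = 0.876 and 0.654). The day 3 value of the first probe passed in 9 of 24 alternative settings.

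**Figure D3:**
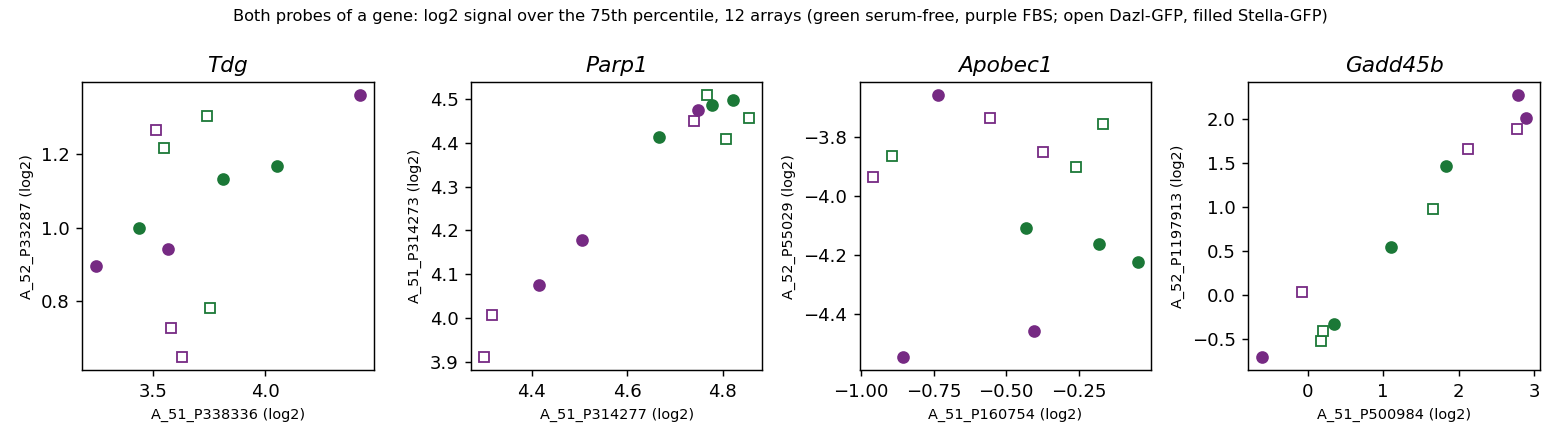
Log2 relative signal of the second probe (vertical axis) against the first (horizontal axis) of the 4 genes with a pair of probes, 12 arrays each. Green is the serum-free arm and purple the FBS arm, with open squares for Dazl-GFP and filled circles for Stella-GFP. The points lie along a line for Parp1 (r = 0.971) and Gadd45b (r = 0.975), and scatter for Tdg (r = 0.456) and Apobec1 (r = -0.06).

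Among other deaminase genes, Apobec2, a relative known from muscle, rose in both arms, by 1.72 at day 10 in serum-free cells (limma adjusted p = 0.0143) and by 2.75 in FBS cells (adjusted p = 0.00195), and was lower in serum-free than in FBS cells at day 10 (-1.51, adjusted p = 0.0205). Apobec3 and Apobec4 did not pass in any comparison. Of 8 methyl-CpG binding genes tested beside Mbd4, 2 were higher in serum-free than in FBS cells at day 3, where 9.26% of all genes were higher, Mbd1 (1.38, adjusted p = 0.00380) and Zbtb38 (2.27, adjusted p = 0.0107), both of which bind methylated DNA and repress transcription. In serum-free cells 4 of the 8 rose at day 3 over day 0, where 6.04% of all genes rose, Mbd1 (0.83, adjusted p = 0.0231), Mbd2 (0.62, adjusted p = 0.0332), Zbtb4 (1.09, adjusted p = 0.0456) and Zbtb38 (1.71, adjusted p = 0.0349). In FBS cells Zbtb33, which encodes the methyl-CpG binding repressor Kaiso, fell at day 3 (-0.80, adjusted p = 0.0419) and at day 10 (-0.75, adjusted p = 0.0483), and Mbd1 rose at day 10 (0.66, adjusted p = 0.0460). Each of these was near the threshold. The Zbtb33 falls passed in 6 of 24 alternative settings at each day and the Mbd1 rise in 7 of 24.

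Counted over the 7 genes, serum-free against FBS cells at day 0 called 0 (3 had an unadjusted p under 0.05), where 1.84% of all genes were called by limma. At day 3 it called 2 of 7, both lower, where 22.7% of all genes were called and 13.4% were lower, and at day 10 it called 1 of 7, lower, where 5.42% were called and 3.48% were lower. In serum-free cells day 3 over day 0 called 2 of 7 (1 higher and 1 lower), where 13.8% of all genes were called, 6.04% higher and 7.76% lower. Day 10 over day 0 called 1 of 7, lower, where 5.04% were called and 2.93% were lower. In FBS cells day 3 over day 0 called 3 of 7 (2 higher and 1 lower), where 11.7% were called, 6.59% higher and 5.14% lower. Day 10 over day 0 called 2 of 7 (1 higher and 1 lower), where 12.9% were called, 7.68% higher and 5.24% lower. The share called among the 7 genes at day 3 between the arms was thus near that of all genes.

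Day 10 over day 3 called 0 of 7 in serum-free cells (2 at an unadjusted p under 0.05, 2.05% of all genes called) and 0 of 7 in FBS cells (1 at an unadjusted p under 0.05, 1.28% called). The difference between the arms' changes called 0 of 7 at day 3 (2 unadjusted, 1.38% of all genes called) and 0 of 7 at day 10 (2 unadjusted, 0.0591% called). Comparisons of 1 arm share its day 0 arrays, and the arm differences share arrays with the time courses, so these counts are not independent of each other.

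No difference between the lines passed. Dazl-GFP minus Stella-GFP over all groups called 0 of 7 by limma (0 at an unadjusted p under 0.05), where 2.72% of all genes were called. The differences ran from -0.25 for Gadd45b (SE 0.18, 95% interval -0.67 to 0.17) to -0.02 for Parp1 (SE 0.12, 95% interval -0.30 to 0.25).

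Groups that do not overlap were counted as well. Serum-free and FBS values did not overlap for 4 of 7 genes at day 0, 5 of 7 at day 3 and 5 of 7 at day 10. Over all tested genes with a value on every array the share without overlap was 49.4% at day 0, 66.2% at day 3 and 55.4% at day 10, so these counts do not set the 7 genes apart. The median of all genes was itself off 0 at day 3 between the arms (-0.20), and relative to that median Gadd45b was at -0.88, Ung at -0.81, Gadd45a at -0.19 and Apobec1 at 0.88. At day 10 the median of all genes was 0.11 and Gadd45b was at -1.91 relative to it.

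**Figure D4:**
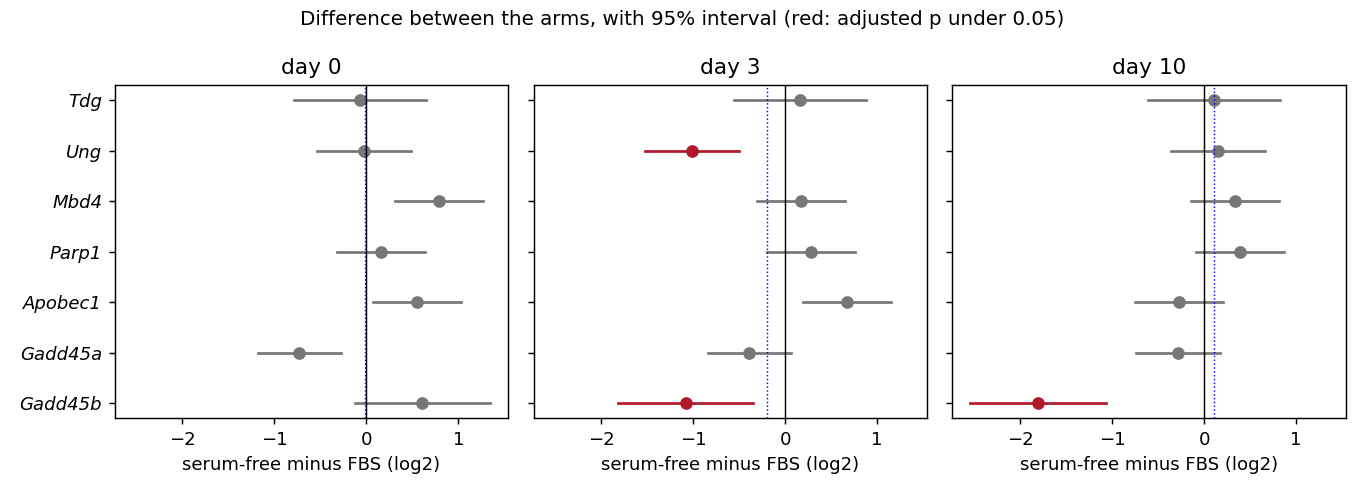
Serum-free minus FBS difference (log2, horizontal axis) of each gene at days 0, 3 and 10, with its 95% interval. Red marks an adjusted p under 0.05, grey the others, and the dotted blue line is the median of all genes. Ung and Gadd45b are red at day 3, at -1.01 and -1.08, and Gadd45b alone at day 10, at -1.81.

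**Figure D5:**
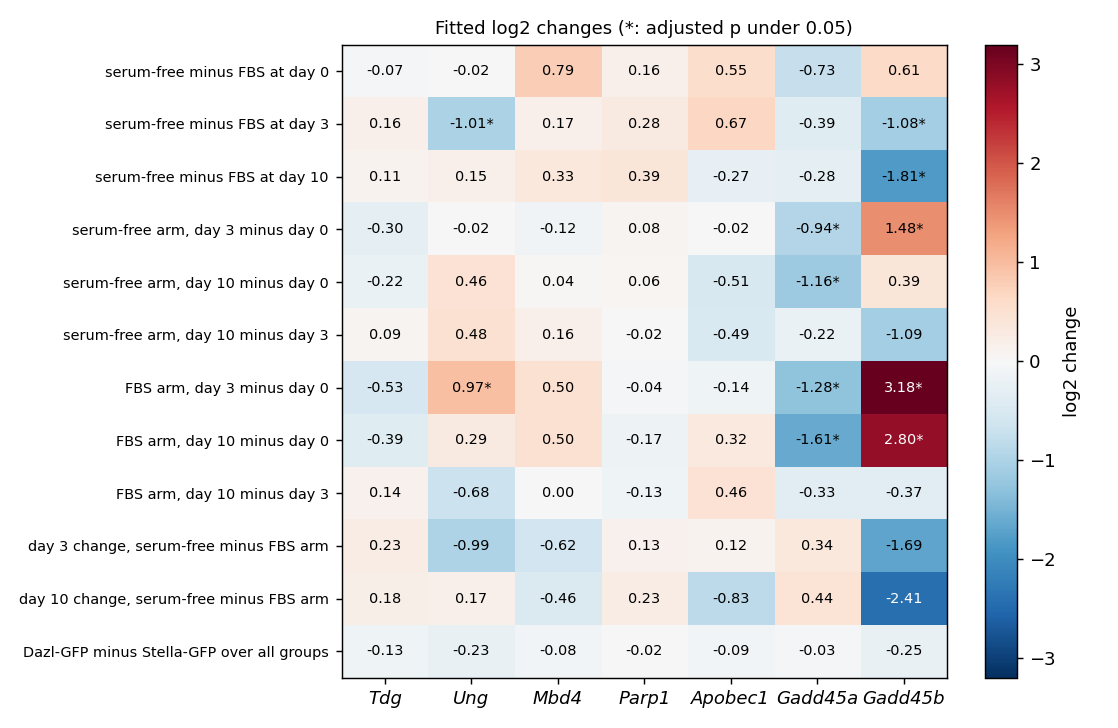
Fitted log2 change of each gene (columns) in each of the 12 comparisons (lines of cells), with the colour scale of the log2 change at the right and a star for an adjusted p under 0.05. The 11 starred cells belong to Gadd45b (5), Gadd45a (4) and Ung (2).

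For each gene the most similar profiles over the 12 arrays were read off as a description, among 13198 genes detected on all arrays. The arrays share groups, so a high correlation shows only that the values run alike. For Gadd45b they were Creg1 (Pearson r = 0.958), Galnt2 (0.957) and Hic2 (0.953). For Gadd45a they were Hjv (0.965), Sox18 (0.958) and Bicdl2 (0.953), and for Ung they were Ubtf (0.974), Ndufb7 (0.965) and Rfc2 (0.957). Tdg was nearest to Eif3m (0.904), Selenot (0.901) and Mllt1 (0.890), Mbd4 to Tdp2 (0.943), Olfr127 (0.937) and Jkamp (0.928), Apobec1 to Epas1 (0.933), Sgce (0.836) and Lyn (0.833), and Parp1 to Mapkapk3 (0.910), Lats2 (0.895) and Cables2 (0.894). Among the 7 genes themselves, Gadd45a and Gadd45b ran against each other (Pearson r = -0.62, Spearman rho = -0.45 over 12 arrays).

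Of the 82 changes of listed pathway genes that passed, 15 passed in all 12 fits without 1 array, and every other one lost its call without at least 1 array. Those of Ercc1, Ercc5, Gadd45g, Gadd45gip1, Neil3, Fos, Egr1, Junb, Atf3 and Mbd1 between the arms at day 3 were among the first of these.

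The start regions of the other genes were searched for the same motifs, and all 7 genes matched a RefSeq window. The start used lies 24 bases inside the gene span for Tdg, 59 for Mbd4 and 580 for Apobec1, and for Parp1 it is where the annotated gene begins. Apobec1 had 9 CpG sites in its 300 bases, and Tdg, Mbd4 and Parp1 had 26, 25 and 20. Tdg held a CRE, at -135, and a CCAAT box, Mbd4 held 2 CCAAT boxes and a GC box, and Parp1 held 4 GC boxes. Apobec1 held a TATA box at -212 on the other strand. No window of the 7 held the AP-1 or E2F letters.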

How the data were processed

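RNA of 12 cultures was read on 12 one-colour Agilent arrays of 45018 spots (43379 not controls). Processed, mean and background signals are deposited intensity values from Feature Extraction 9.1.3.1, background-subtracted and detrended for the processed signal, per the file headers. The series table deposited by the authors holds a ratio: from its values, background-subtracted signal over the array median. Its making is not given in the sources used here.

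Processed signals were taken as log2, minus each array's 75th percentile. Spots marked non-uniform were dropped, and the brightest probe stood for a gene. Of 41174 probes, 22951 were named through RefSeq accessions and 18223 by the file. Genes with a signal well above background on 2 or more arrays were fitted with limma 3.58.1 (R 4.3.3) by group and line (5 residual degrees of freedom, prior 2.53), with Benjamini-Hochberg adjustment. Figures used matplotlib 3.10.9. The number of arrays limits the precision.

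Replicate numbers are the cell lines, so they pair the arrays, and line was a term of the model (deviations correlated at -0.05 to 0.57 over 15 pairs of groups, median 0.16). Alternatives were quantile and normexp scaling, the authors' table, other filters, all probes, no line block, slide block, a variance trend, fewer arrays and leaving out each array. The 7 genes and all lists were chosen with earlier results of these data known. Named from the lists are genes that passed, and, by correlation, the 3 most alike of each gene. Some genes of the pathway lists are not reported here.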

Additional observations from a re-analysis of the deposited data

Results flagged for a closer look

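The changes of the arms from day 0 to day 3 differed by the limma test of that difference (adjusted p under 0.05 over all genes) for 3 genes of the pathway lists and for none of the 7 genes. Neil3, a glycosylase for oxidised bases, differed by 1.43 (SE 0.23, adjusted p = 0.0408), with the serum-free change above the FBS change. Fos differed by -3.68 (SE 0.66, adjusted p = 0.0486) and Junb by -1.48 (SE 0.27, adjusted p = 0.04997), with the serum-free changes below the FBS changes. Leaving out 1 array at a time kept the call in 1 of 12 fits for Neil3 (1.29 to 1.56), in 0 of 12 for Fos (-4.38 to -2.99) and in 1 of 12 for Junb (-1.58 to -1.38). Groups of 2 arrays were too small for a search for outlying arrays.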

How the results depend on the processing

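No called change of the 7 genes changed sign under any alternative. With normexp as planned the counts of called genes were 0 for the arms at days 3 and 10, for both serum-free changes from day 0 and for FBS day 3, and 1 for FBS day 10. A few local backgrounds on 1 array were very high there. With those replaced, an alternative chosen after seeing the data, the counts were 2 for the arms at day 0, 1 for day 10 over day 3 in each arm, 2 for the difference of the changes at day 3 and 1 at day 10. With the slide as a block they were 0 for the arms at days 3 and 10, 1 for serum-free day 3, 0 for serum-free day 10 and 1 for FBS day 3. With only the arrays compared they were 0 for the arms at days 3 and 10, serum-free day 10, and FBS days 3 and 10. The arms at day 3 had 1 with the authors' table, 1 with its floor of 0.1 (chosen after seeing the data), 1 with no filter and 1 with no replicate block (Ung stayed, while Gadd45b was at adjusted p = 0.0587). The block changed 1 other call, the FBS rise of Ung at day 3 (adjusted p = 0.0553 without it). A variance trend gave 1 for the arms at day 0 and 1 for each difference of the changes, and the day 10 difference also had 1 with the floored table and with genes above background on all 12 arrays. Leaving out 1 array gave 0 to 3 for the arms at day 3, 0 to 1 at day 10, 0 to 2 for serum-free day 3, 0 to 1 for serum-free day 10 and 1 to 3 for FBS day 3. The arms at day 3 had 3, with Apobec1 added, under the replaced backgrounds, the variance trend, all probes and genes above background on all 12 arrays. Apobec1 there passed in 9 of 24 alternatives (adjusted p 0.0319 to 0.628). Of the list genes, 82 changes passed, and 1 changed sign, Parp3 at FBS day 3 under normexp (-0.12). Quantile scaling put the median of all genes between the arms at day 3 at -0.07 in place of -0.20, with Ung at -0.67 and Gadd45b at -0.96 (adjusted p = 0.0667). The share of called genes that were higher in serum-free cells there was 40.9%, against 52.0% with quantile scaling and 54.6% with the authors' table. At day 0 it was 53.6% against 63.7% and 70.5%, and at day 10 35.9% against 31.6% and 18.2%. The causes of these shifts were not tested.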
